A study of Homo sapiens with 6 samples.

Results

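The genes described are the core of transforming growth factor β (TGF-β) and SMAD signalling, 9 genes chosen by name, namely the ligands TGFB1 and TGFB2, the receptors TGFBR1 and TGFBR2, the signal transducers SMAD2, SMAD3 and SMAD4, and the inhibitors SMAD7 and SKIL. They are 9 of the 58825 genes of the expression table and 9 of the 17774 genes that were expressed enough to be tested. RNA-seq was performed on PANC-1, an established line of human pancreatic carcinoma cells, cultured with 40 μM maslinic acid (MA) for 24 h in 3 samples (MA PANC-1 1 to 3) or without MA, at 0 μM, in 3 samples (PANC-1 1 to 3). MA is a pentacyclic triterpenoid found in olives. The methods of the study call the samples of a group biological replicates, all of 1 cell line, and name DMSO as the vehicle of cell treatments in general, while the labels give the untreated samples only as 0 μM. The comparison addresses which transcripts change in PANC-1 cells exposed to MA.

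Of the 9 genes, 8 were found by their name. TGFB1 was found by its Ensembl identifier, ENSG00000105329, because its row carried the name AC011462 with the description of TGFB1. Gene coordinates are given as the deposited table lists them, with no build named there. Each of the 9 had a single identifier, and all 9 passed the filter on low values, a mean FPKM of at least 0.1.

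TGF-β is secreted in a latent form, bound to its own propeptide and to storage proteins of the matrix, and has to be released before it can bind. The active ligand binds the type II receptor, TGFBR2, which recruits and phosphorylates the type I receptor, TGFBR1. TGFBR1 then phosphorylates SMAD2 and SMAD3, which join SMAD4, enter the nucleus and regulate transcription, while SMAD7 blocks the receptor and SKIL represses the SMAD complex on DNA. In epithelial cells the pathway is known for growth arrest and for loss of epithelial traits, and pancreatic carcinomas often carry defects in it.

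The lower TGFB2 and TGFBR2 transcripts were the leading result among the 9 genes, so the 250 bases before the most upstream RefSeq start of each are shown, from the GRCh38.p14 assembly and on the strand of the gene. The window of TGFB2 is chr1:218345086-218345335, plus strand, and that of TGFBR2 is chr3:30606106-30606355, plus strand. Capitals mark matches to 5 short motifs searched on both strands, and TGFBR2 had none.
TGFB2: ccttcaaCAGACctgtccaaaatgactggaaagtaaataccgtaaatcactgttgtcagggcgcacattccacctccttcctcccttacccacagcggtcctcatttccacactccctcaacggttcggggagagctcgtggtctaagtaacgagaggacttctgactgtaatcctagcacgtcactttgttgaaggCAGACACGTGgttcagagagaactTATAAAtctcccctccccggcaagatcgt
TGFBR2: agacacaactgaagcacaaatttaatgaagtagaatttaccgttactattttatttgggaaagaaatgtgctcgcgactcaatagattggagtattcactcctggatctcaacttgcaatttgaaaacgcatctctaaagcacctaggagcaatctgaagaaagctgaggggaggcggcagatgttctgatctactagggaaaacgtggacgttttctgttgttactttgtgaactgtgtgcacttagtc

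The motifs were the SMAD-binding element CAGAC, its palindromic form GTCTAGAC, the AP-1 motif TGACTCA, the E-box CACGTG and TATAAA, a core promoter motif. CAGAC occurred in 38% of all 35116 RefSeq windows of this length. Of the 9 genes, 3 had it in their most upstream window (TGFB2, SMAD7 and SKIL). GTCTAGAC occurred in 0.182% of all windows and TGACTCA in 4.2%, each in 0 of the 9 genes. CACGTG, in 6.34% of all windows, was found for TGFB2 and SMAD3, and in TGFB2 it shares 1 base with a CAGAC match. TATAAA, in 10.7% of all windows, was found for TGFB2 alone of the 9, from 29 to 24 bases before the start. The 2 windows had no motif of the 5 in common, and their GC content was 50.4% for TGFB2 and 40.8% for TGFBR2. All 9 genes had a window, 24 windows in all, as several genes have more than 1 RefSeq start. The counts for the 9 genes rest on the most upstream window of each, whereas the shares of all windows include every start.

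The estimated counts of the MA libraries 1 to 3 added up to 56978375, 63984133 and 58181114, and those of the untreated libraries 1 to 3 to 70275355, 65607669 and 59422939. These sums exceed the numbers of valid reads listed by the study, so they stand for relative depth and not for reads sequenced. MA PANC-1 2 stood apart from the other 5 libraries. On the first principal component of log2 CPM (counts scaled to a common library size), which held 26.4% of the variance, it lay at -73.6, against -29.5 and 16.2 for the other MA libraries and 18.1 to 44.9 for the untreated ones. On the second component MA PANC-1 1 was the library apart, at 72.2 against -43.0 to 7.85 for the others.

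Markers of epithelial cells were checked against the label. KRT8 and KRT18, keratins of simple epithelia, were among the most abundant transcripts, at 141 to 225 and 278 to 338 FPKM. Other epithelial markers were low, with KRT7 at 1.40 to 2.19 FPKM and CDH1 (E-cadherin) at 0.778 to 1.28 FPKM, and KRT19 and EPCAM did not exceed 0.109 and 0.132 FPKM. Of the fibroblast markers, COL3A1 reached 10.5 to 19.0 FPKM and COL1A1 2.64 to 5.96 FPKM, while LUM was at 0.351 to 0.616 FPKM and COL1A2, PDGFRB and DCN did not exceed 0.405, 0.0738 and 0.0107 FPKM. The leukocyte markers PTPRC and CD3E and the endothelial markers PECAM1, VWF and CDH5 were at 0.0275 FPKM or below in every library, CD14 did not exceed 0.101 FPKM, and CD68, a lysosomal protein, was at 25.6 to 40.9 FPKM. None of the markers tested differed between the groups at an unadjusted p under 0.05. In a culture sequenced in bulk, fewer cells with a transcript and less of it per cell cannot be told apart.

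In untreated cells the 9 genes spanned a wide range of expression, compared here on the length-normalised FPKM scale. TGFBR2 had the highest level (41.9 ± 0.620 FPKM, SD, n = 3), followed by SMAD3 (34.3 ± 1.10), TGFB1 (32.6 ± 1.22) and TGFB2 (14.6 ± 0.228). The other receptor, SKIL and the remaining SMAD genes were far lower by FPKM. TGFBR1 was at 4.36 ± 0.413, SKIL at 3.29 ± 1.60, SMAD7 at 2.68 ± 0.387, SMAD4 at 2.48 ± 0.198 and SMAD2 at 1.77 ± 0.0348 FPKM. The ranges of SMAD3 and TGFB1 overlapped, as did those of each neighbouring pair from TGFBR1 down to SMAD4, whereas SMAD2 lay below all the others by FPKM. By estimated count, not scaled for length, SMAD2 had 5361, 4999 and 4675 in PANC-1 1 to 3. That was more than TGFBR1, SKIL, SMAD7 or SMAD4 had in any of these libraries, so its lowest place rests on the length scaling. TGFBR2 stood at the 93.6th percentile and SMAD2 at the 43.5th percentile of the tested genes by mean FPKM over the 6 samples. After MA the order of the means was TGFB1 (37.8), SMAD3 (32.2), TGFBR2 (30.3), TGFB2 (10.5), TGFBR1 (3.31), SKIL (3.09), SMAD4 (2.64), SMAD7 (2.59) and SMAD2 (1.64 FPKM). TGFBR2 thus came after TGFB1 and SMAD3 in the MA libraries, although its range there overlapped that of SMAD3.

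**Figure D1:**
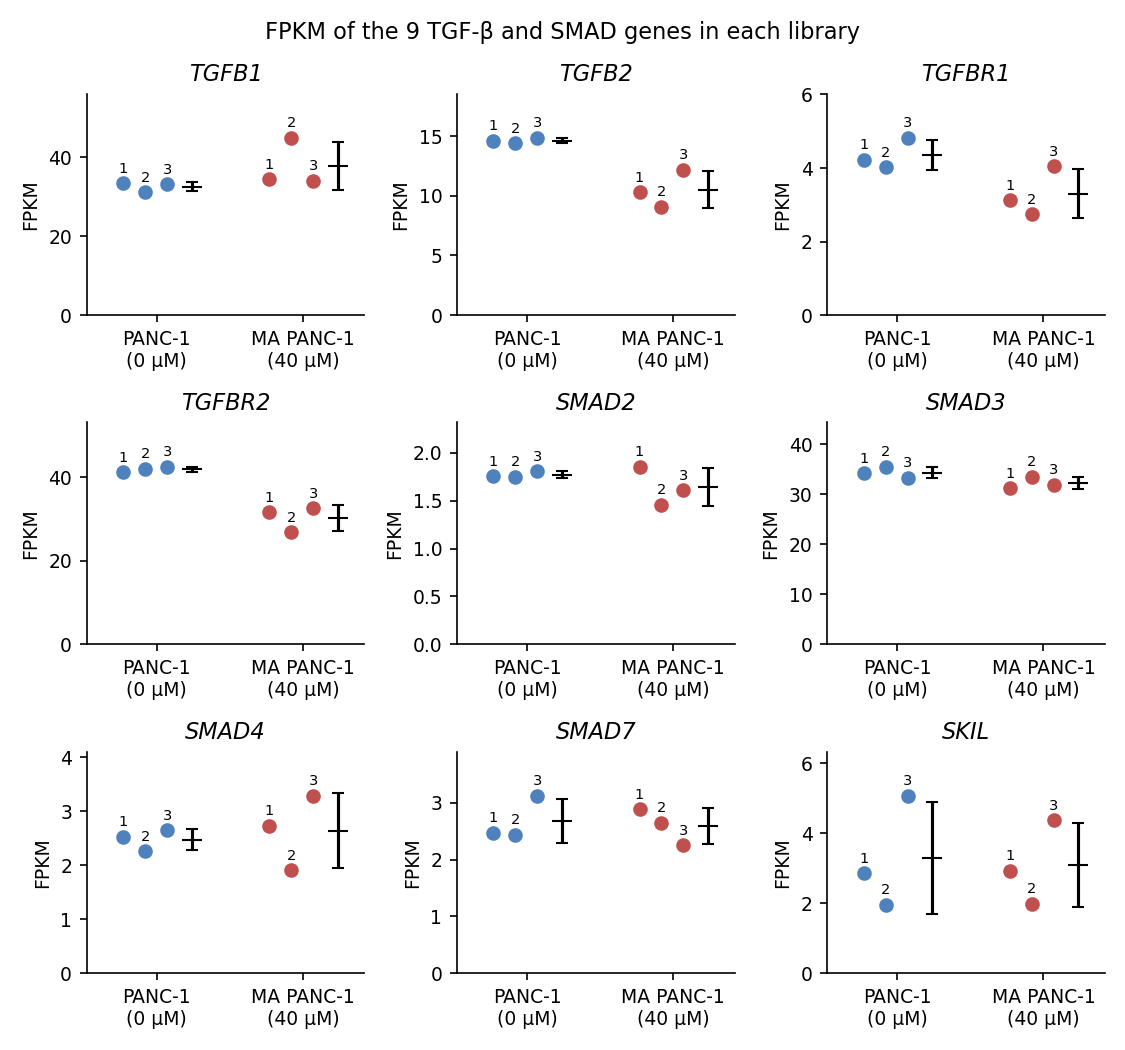
FPKM (vertical axes, from 0, with a scale for each gene) of the 9 genes in the 3 untreated (blue) and 3 MA-treated (red) libraries, with the replicate number above each point and the mean ± SD in black. The MA points of TGFB2 and TGFBR2 lie below all untreated points, and those of TGFB1 lie above them, with MA PANC-1 2 the highest at 45.0 FPKM.

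MA was followed by lower transcript levels of TGFBR2 and TGFB2, and less firmly of TGFBR1, whose groups overlapped, all by less than 2-fold. No gene of the core was higher by the test. At an unadjusted p under 0.05 by edgeR's quasi-likelihood test on the counts, called the unadjusted threshold below, 3 of the 9 genes were lower after MA, against 5.86% of all tested genes, and 0 of 9 were higher, against 5.37%. In either direction this was 3 of 9, against 11.2% of all tested genes. The 3 genes followed similar patterns over the 6 libraries, so they are not independent results. Pearson r of log2 CPM was 0.970 for TGFB2 with TGFBR2, 0.936 for TGFB2 with TGFBR1 and 0.855 for TGFBR1 with TGFBR2. None of the 9 reached the thresholds of the study for a differentially expressed gene (DEG), 2-fold higher or lower with an unadjusted p under 0.05, which 1.92% of the tested genes passed. None had a Benjamini-Hochberg adjusted p under 0.05 in the edgeR test over all genes, where 7 genes, 0.0394%, did; DESeq2 on the same counts called 1 of the 9 (TGFBR2) among 263 genes, 1.48%. The FPKM ranges of the groups did not overlap for 3 of the 9 genes, against 19.9% of the tested genes. The median log2 fold change of the 9 genes was -0.06, beside -0.0017 for all tested genes, and 7 of the 9 estimates were negative. With 3 samples against 3, an exact permutation test cannot give a p below 0.1, so it cannot reach 0.05 for any single gene.

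TGFB1 and TGFB2 encode ligands of the same receptors. TGFB1 (ENSG00000105329, chr19:41301587-41353911, minus strand) had FPKM of 34.4, 45.0 and 34.1 in MA PANC-1 1 to 3 and of 33.4, 31.2 and 33.2 in PANC-1 1 to 3. The MA libraries were all above the untreated ones, but 2 of them only slightly, and MA PANC-1 2 stood well above the rest. The log2 fold change was 0.26 (SE 0.15, 95% interval -0.09 to 0.61, edgeR adjusted p = 0.521), and 0.07 without MA PANC-1 2, and neither passed the unadjusted threshold. An exact permutation test of the FPKM values gave p = 0.1. HNRNPUL1 and CCDC97 overlap TGFB1 on the opposite strand with 182% and 35.4% of its counts. The libraries were made with a kit that marks strand, but whether counting used it was not stated, so the value of TGFB1 is uncertain to that extent.

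TGFB2 (ENSG00000092969, chr1:218345336-218444619, plus strand) had FPKM of 10.3, 9.09 and 12.2 in MA PANC-1 1 to 3 and of 14.6, 14.4 and 14.9 in PANC-1 1 to 3. The untreated libraries lay close together and the 3 MA libraries were all below them. The log2 fold change was -0.44 (SE 0.10, 95% interval -0.69 to -0.20), which is 0.736 of the untreated level, and it passed the unadjusted threshold with a Benjamini-Hochberg adjusted p = 0.375 by edgeR. Leaving out any 1 library gave -0.54 to -0.38, of which -0.38 was without MA PANC-1 2, and each of these passed the unadjusted threshold as well. The adjusted p ranged from 0.0521 to 0.729 over all alternatives, and the exact permutation p was 0.1.

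The receptors form a complex in which TGFBR2 binds the ligand and TGFBR1 carries the signal to the SMAD proteins. TGFBR2 (ENSG00000163513, chr3:30606502-30694142, plus strand) had FPKM of 31.6, 26.8 and 32.6 in MA PANC-1 1 to 3 and of 41.3, 42.0 and 42.5 in PANC-1 1 to 3. The groups were well separated, the untreated libraries lay close together, and MA PANC-1 2 was the lowest of all. The log2 fold change was -0.43 (SE 0.08, 95% interval -0.63 to -0.24), 0.740 of the untreated level, with a Benjamini-Hochberg adjusted p = 0.268 by edgeR. It was -0.39 without MA PANC-1 2, lay between -0.47 and -0.39 over all leave-one-out fits, and passed the unadjusted threshold in each of them. The adjusted p was 0.0161 with DESeq2, the lowest of a range over all alternatives that reached 0.729, and the exact permutation p was 0.1.

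TGFBR1 (ENSG00000106799, chr9:99104038-99154192, plus strand) had FPKM of 3.13, 2.75 and 4.05 in MA PANC-1 1 to 3 and of 4.22, 4.03 and 4.82 in PANC-1 1 to 3. MA PANC-1 3 lay just above PANC-1 2, so the groups overlapped by that pair of libraries. The log2 fold change was -0.37 (SE 0.15, 95% interval -0.72 to -0.01), with a Benjamini-Hochberg adjusted p = 0.441 by edgeR and an exact permutation p of 0.2. It passed the unadjusted threshold narrowly, and with 5 samples it passed only without MA PANC-1 3, not without any of the other 5 libraries, MA PANC-1 2 included (-0.28). The direction was kept throughout, at -0.51 to -0.28.

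**Figure D2:**
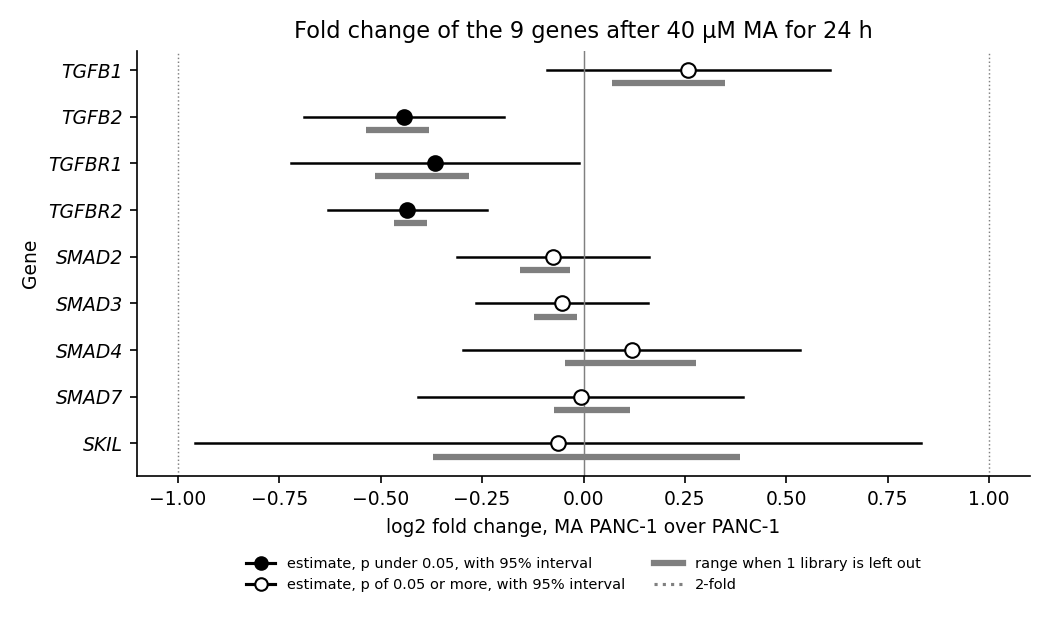
Log2 fold change (horizontal axis, MA PANC-1 over PANC-1) of the 9 genes from edgeR (circles, filled where the unadjusted p is under 0.05) with 95% intervals (thin lines) and the range of estimates when 1 library is left out (grey bars); dotted lines mark 2-fold. TGFB2, TGFBR1 and TGFBR2 lie at -0.44, -0.37 and -0.43 with intervals below 0, the SMAD genes lie near 0, and SKIL has the widest interval, -0.96 to 0.83.

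The transducers gave no difference past the test. SMAD3 (ENSG00000166949, chr15:67063763-67195169, plus strand), which binds DNA directly, had FPKM of 31.2, 33.5 and 31.9 in MA PANC-1 1 to 3 and of 34.2, 35.4 and 33.2 in PANC-1 1 to 3, with a log2 fold change of -0.05 (95% interval -0.26 to 0.16, edgeR adjusted p = 0.840). SMAD2 (ENSG00000175387, chr18:47808957-47931141, minus strand), its close relative, had FPKM of 1.85, 1.46 and 1.61 after MA and of 1.75, 1.75 and 1.81 without, with a log2 fold change of -0.08 (95% interval -0.31 to 0.16, edgeR adjusted p = 0.788). The groups overlapped for both genes, and neither interval reached beyond -0.31 or 0.16 on the log2 scale.

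SMAD4 (ENSG00000141646, chr18:51028394-51085045, plus strand), the common partner of the receptor-activated SMAD proteins, had FPKM of 2.73, 1.91 and 3.29 in MA PANC-1 1 to 3 and of 2.53, 2.26 and 2.65 in PANC-1 1 to 3. MA PANC-1 2 was the lowest and MA PANC-1 3 the highest of all 6, so the MA group spanned the untreated one. The log2 fold change of 0.12 (95% interval -0.30 to 0.53, edgeR adjusted p = 0.814) depended on single libraries, at 0.28 without MA PANC-1 2 and -0.05 without MA PANC-1 3.

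The inhibitors also overlapped between the groups. SMAD7 (ENSG00000101665, chr18:48919853-48952052, minus strand), which is itself induced by TGF-β and recruits ubiquitin ligases to the receptor, had FPKM of 2.89, 2.65 and 2.25 after MA and of 2.47, 2.44 and 3.12 without. The highest and the lowest SMAD7 values were those of PANC-1 3 and MA PANC-1 3, and the log2 fold change was -0.01 (95% interval -0.41 to 0.39, edgeR adjusted p = 0.990). SKIL (ENSG00000136603, chr3:170357678-170396835, plus strand), which encodes the SMAD corepressor SnoN, had FPKM of 2.92, 1.99 and 4.37 after MA and of 2.85, 1.96 and 5.07 without. Replicate 2 was lowest and replicate 3 highest in both groups, an order that TGFBR1 and SMAD4 shared, and the log2 fold change of -0.06 (95% interval -0.96 to 0.83, edgeR adjusted p = 0.960) had the widest interval of the 9.

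Ratios within a library do not depend on its depth. TGFB1 was 3.34, 4.94 and 2.80 times TGFB2 in MA PANC-1 1 to 3 by FPKM and 2.28, 2.17 and 2.23 times in PANC-1 1 to 3, with all MA libraries above all untreated ones, as the values of both genes given above imply. TGFBR2 was 1.01, 0.800 and 1.02 times SMAD3 after MA and 1.21, 1.19 and 1.28 times without, with no overlap, as the values of both genes also imply. The ratio of the receptors overlapped between the groups. TGFBR2 was 10.1, 9.75 and 8.06 times TGFBR1 after MA and 9.77, 10.4 and 8.81 times without (two-sided exact permutation p = 0.6). With so few samples this does not show that the receptors changed equally. SMAD3 was 16.8, 22.9 and 19.8 times SMAD2 after MA and 19.5, 20.3 and 18.3 times without (exact permutation p = 0.8). The size of this ratio rests on the length scaling of FPKM. The ratio of SMAD3 to SMAD4 gave an exact permutation p of 0.7. Of these 5 ratios, 2 had no overlap between the groups, and no adjusted value of an exact p can pass 0.05 here.

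**Figure D3:**
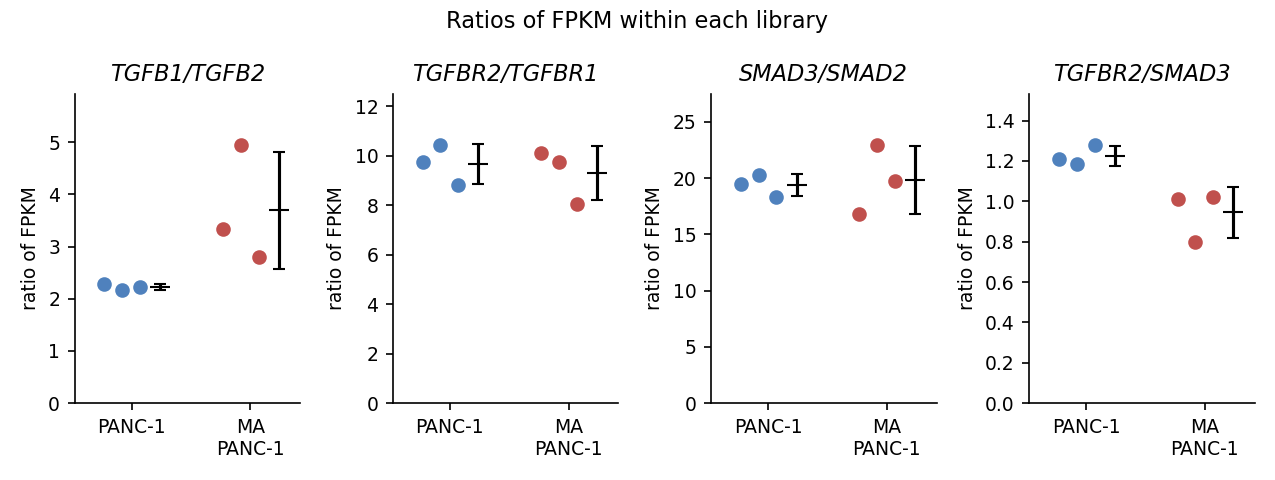
Ratios of FPKM between 2 genes of the core within each library (vertical axes, from 0), for 3 untreated (blue) and 3 MA-treated (red) libraries, with the mean ± SD in black. TGFB1/TGFB2 is 2.80 or more in all MA libraries and 2.28 or less in all untreated ones, TGFBR2/SMAD3 is lower in all MA libraries, and TGFBR2/TGFBR1 and SMAD3/SMAD2 overlap.

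The genes whose pattern over the 6 samples was most like that of the leading members were sought among the other 11469 tested genes whose mean FPKM was 1 or more, by Pearson r of log2 CPM. The points share libraries and treatment, so r is a description. For TGFBR2 they were AKAP12, a scaffold protein of kinase A (r = 0.997, log2 fold change -0.84), SPRY2, an inhibitor of receptor tyrosine kinase signalling (r = 0.997, -0.43), and the deubiquitinase STAMBPL1 (r = 0.996, -0.43). For TGFB2 they were SDC2, a heparan sulphate proteoglycan (r = 0.997, -0.22), CCDC6 (r = 0.996, -0.31) and the hydroxylase ASPH (r = 0.996, -0.49).

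Around the core, 109 further genes of the pathway were collected in 9 lists by role, of which 95 passed the filter. Counting each gene once, 5 were higher and 9 lower after MA at an unadjusted p under 0.05, beside 5.37% and 5.86% of all tested genes, 1 was a DEG, beside 1.92%, and 0 had an adjusted p under 0.05 by edgeR. The total of 14 became 23 on leaving out MA PANC-1 3 and 8 on leaving out PANC-1 3 by edgeR. DESeq2 gave 6 higher and 13 lower, where it called 5.55% and 6.54% of all tested genes, 2 DEGs (CDKN1A and ACVR2B), beside 1.79%, and 1 gene with an adjusted p under 0.05, CDKN1A. The shares of 5.37% higher and 5.86% lower by edgeR, and of 19.9% without overlap, are the background for each list that follows. The lists were chosen with earlier results of these data known and share some genes, so their counts are descriptions and not tests. The median log2 fold change of the 95 was -0.01, with 46 positive and 49 negative values, near the median of all tested genes. In the KEGG TGF-beta signaling pathway as annotated in the deposited table, 70 of 91 genes were tested, of which 4 were higher, 6 lower and 0 were DEGs. The 6 lower genes included TGFBR2, TGFB2 and TGFBR1, and SKIL was the only one of the 9 core genes without this annotation.

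Genes that TGF-β is known to induce gave 5 lower of 22 tested (25 in the list) by edgeR, beside 5.86% of all tested genes, with 0 higher. DESeq2 gave 7 lower, beside 6.54% of all tested genes, and 0 higher. The median log2 fold change by edgeR was -0.14, with 16 negative values. CDKN1A, the cyclin-dependent kinase inhibitor p21, was the only DEG. It had FPKM of 27.8, 35.0 and 21.3 in MA PANC-1 1 to 3 and of 57.7, 69.2 and 70.1 in PANC-1 1 to 3. Every untreated library was well above every MA library. The log2 fold change was -1.18 (SE 0.21, Benjamini-Hochberg adjusted p = 0.216 by edgeR and 2.29e-05 by DESeq2), and -1.42 without MA PANC-1 2. Without MA PANC-1 3 it was -0.9993, just short of 2-fold, so CDKN1A missed the DEG thresholds there. CDKN1A is also a known target of p53.

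TGFBI, a secreted matrix protein, had FPKM of 27.2, 24.1 and 23.2 after MA and of 32.2, 31.7 and 40.9 without, with a log2 fold change of -0.46. THBS1, thrombospondin 1, which can release latent TGF-β and is on the list of activators as well, had FPKM of 15.8, 13.9 and 14.4 after MA and of 19.1, 17.9 and 20.7 without, with a log2 fold change of -0.35. PMEPA1, a feedback inhibitor that is also on the list of brakes, had FPKM of 35.9, 30.5 and 32.3 after MA and of 37.8, 40.4 and 50.2 without, with a log2 fold change of -0.35, which missed the unadjusted threshold without MA PANC-1 2 (-0.33), MA PANC-1 3 (-0.31) or PANC-1 3 (-0.22). The groups did not overlap for these 3 genes, and the edgeR adjusted p was 0.388 for TGFBI and THBS1 and 0.429 for PMEPA1. The last of the 5 called by edgeR was SNAI2, a repressor of epithelial genes that was named after its values were seen. It had FPKM of 0.730, 0.524 and 1.03 after MA and of 1.29, 0.969 and 1.43 without, so that the groups overlapped. Its log2 fold change of -0.66 (edgeR adjusted p = 0.444) only just passed the unadjusted threshold, with a 95% interval from -1.32 to -0.0014. It missed that threshold without MA PANC-1 1 (-0.62), MA PANC-1 2 (-0.48), PANC-1 1 (-0.63) or PANC-1 3 (-0.54). The most abundant gene of the list, VIM (vimentin), had 569 ± 56.1 FPKM after MA and 665 ± 77.5 without (SD, n = 3), a log2 fold change of -0.19 that did not pass the test. Without MA PANC-1 2 it was -0.31, past the unadjusted threshold, with an edgeR adjusted p = 0.472.

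Among 6 genes that TGF-β is known to repress in epithelial cells, 1 was higher and 0 were lower (5.37% and 5.86% of all tested genes). ID3, an inhibitor of basic helix-loop-helix factors, had FPKM of 32.0, 34.8 and 28.9 in MA PANC-1 1 to 3 and of 24.4, 23.0 and 22.2 in PANC-1 1 to 3, with all MA libraries above all untreated ones and a log2 fold change of 0.50 (SE 0.13, Benjamini-Hochberg adjusted p = 0.388 by edgeR). It was 0.39 without MA PANC-1 2 and passed the unadjusted threshold there too. Its relatives ID1 and ID2 did not pass the test, at log2 fold changes of 0.21 and 0.47, with no overlap between the groups for either, and ID1 was at 0.12 without MA PANC-1 2. The median of the list was 0.34, with 5 positive values of 6. One of these was MYC, a driver of cell growth named after its values were seen, which had FPKM of 1.06, 5.45 and 8.28 after MA and of 8.26, 0.820 and 0.318 without. The libraries of each group thus lay far apart, and its log2 fold change of 0.69 did not pass the test (edgeR adjusted p = 0.839). The estimate was 3.11, past the unadjusted threshold, without PANC-1 1. It was 0.15 without MA PANC-1 3, 0.23 without PANC-1 2 and 0.16 without PANC-1 3. Without MYC the median of the other 5 genes was 0.21, with 4 positive values. The ID genes are also targets of BMP signalling.

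**Figure D4:**
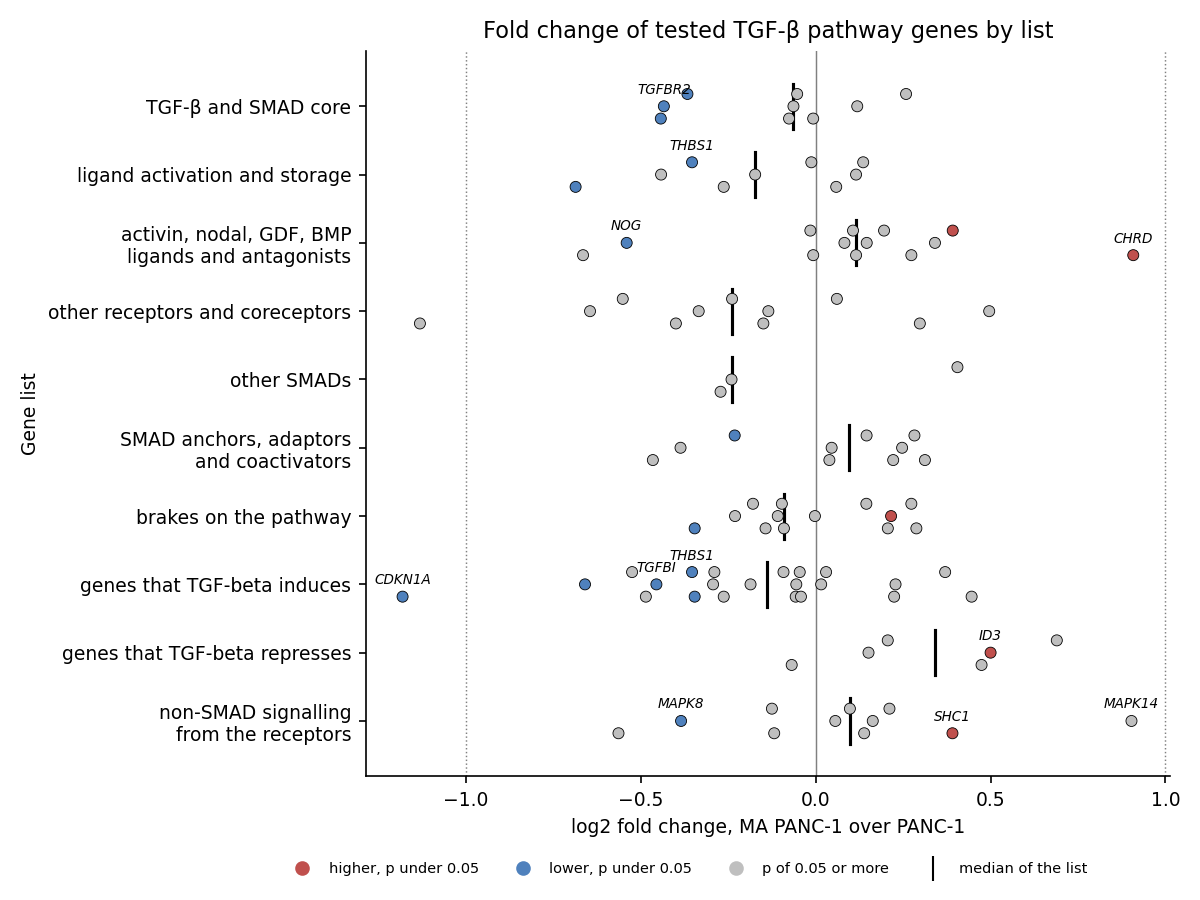
Log2 fold change (horizontal axis, MA PANC-1 over PANC-1) of the tested genes in the core and in 9 lists of the pathway (rows), a point per gene, red or blue where the unadjusted p of edgeR is under 0.05, with the median of each list as a black bar; dotted lines mark 2-fold. Among genes that TGF-β induces 5 are blue and 0 red with CDKN1A at -1.18, and the genes that TGF-β represses have a median of 0.34.

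Of the genes that store or activate the ligand, 2 of 9 tested were lower and 0 higher (5.86% and 5.37% of all tested genes). Beside THBS1 this was ITGB8, the β8 subunit of an integrin that activates TGF-β, at a log2 fold change of -0.69 (edgeR adjusted p = 0.435), although its level was only 0.101 ± 0.0277 FPKM after MA and 0.165 ± 0.0234 without and it did not pass without MA PANC-1 2 (-0.50), PANC-1 1 (-0.59) or PANC-1 2 (-0.67), nor with limma. ITGAV, its αv partner, had 12.7 ± 3.48 FPKM after MA and 17.6 ± 2.70 without (SD, n = 3), at -0.44, and did not pass in the edgeR fit of all 6 samples. It was -0.26 without MA PANC-1 2, which did not pass either, and it passed the unadjusted threshold without MA PANC-1 3 (-0.55), with DESeq2 and with no filter. The protease FURIN, which cleaves the propeptide and was the most abundant, had a log2 fold change of 0.06.

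Ligands and antagonists of the activin, nodal, GDF and BMP branches gave 2 higher and 1 lower of 13 tested by edgeR (5.37% and 5.86% of all tested genes), and 3 higher and 2 lower by DESeq2 (5.55% and 6.54%). BMP8B was higher, at 4.68 ± 0.581 against 3.66 ± 0.0703 FPKM (SD, n = 3) and a log2 fold change of 0.39, but PPIE overlaps it on the opposite strand with more counts than its own. It missed the unadjusted threshold without MA PANC-1 1 (0.31), PANC-1 1 (0.40), PANC-1 2 (0.40) or PANC-1 3 (0.37). Of the BMP antagonists, NOG was lower at -0.54 (-0.45 without MA PANC-1 2) and CHRD was higher at 0.91 (0.66 without MA PANC-1 2), from only 0.182 ± 0.0442 against 0.0976 ± 0.0169 FPKM, and neither passed the unadjusted threshold without MA PANC-1 2 or without PANC-1 3 (-0.37 for NOG and 0.78 for CHRD), nor did CHRD without PANC-1 1 (0.94) or with limma. The edgeR adjusted p was 0.424 for BMP8B, 0.429 for NOG and 0.430 for CHRD. GDF15 was the most abundant of the list, at 126 ± 13.4 against 122 ± 34.2 FPKM.

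The other receptors and SMAD genes gave no call by edgeR, 0 of 11 and 0 of 3, where DESeq2 called 1 receptor, ACVR2B, which was named after its values were seen, as a lower DEG (DESeq2 adjusted p = 0.352). Its log2 fold change was -1.13 by edgeR too, at 0.0811 to 0.529 FPKM with overlapping groups, and passed the unadjusted threshold there without MA PANC-1 2 (-1.98) or PANC-1 3 (-1.54). The activin receptor ACVR1B had a log2 fold change of 0.30, the coreceptors ENG and TGFBR3 had -0.55 and -0.40 at less than 1 FPKM, the BMP transducers SMAD1 and SMAD5 had -0.24 and -0.27, and the inhibitor SMAD6 had 0.41. All 6 overlapped between the groups. Leaving out a single library took 3 of them past the unadjusted threshold. These were TGFBR3 (-0.61) and SMAD5 (-0.37) without MA PANC-1 3 and SMAD6 (0.68) without PANC-1 3. Estimates nearer 0 were 0.15 for ACVR1B without PANC-1 1, -0.17 for SMAD5 without MA PANC-1 2 and 0.22 for SMAD6 without PANC-1 2.

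Of 10 anchors, adaptors and coactivators, only SP1, a transcription factor that works with SMAD proteins, passed the test, lower at -0.23 (edgeR adjusted p = 0.439), and it missed the unadjusted threshold with DESeq2 and limma and without MA PANC-1 1 or any of the untreated libraries (-0.26 to -0.22). The deubiquitinases USP4 and USP11, which stabilise the receptor, had log2 fold changes of 0.25 and 0.31 and did not pass, and USP11 was at 0.14 without MA PANC-1 2 and passed without MA PANC-1 3 (0.43). Of 13 brakes, STRAP, an adaptor that holds SMAD7 at the receptor, was higher at 0.22 (edgeR adjusted p = 0.436, not past the unadjusted threshold with DESeq2, limma or another filter, nor without MA PANC-1 3 or any of the untreated libraries, at 0.16 to 0.23) and PMEPA1 lower, while the ubiquitin ligase STUB1 had 0.27 and the receptor-binding FKBP1A 0.29, neither past the unadjusted threshold. STUB1 was at 0.14 without MA PANC-1 2 and passed without MA PANC-1 1 (0.39). FKBP1A was at 0.08 without MA PANC-1 3 and at 0.41 without MA PANC-1 2.

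Signalling from the receptors that bypasses SMAD proteins gave 1 higher and 1 lower of 11 (5.37% and 5.86% of all tested genes). SHC1, an adaptor to the RAS and ERK pathway, had 67.8 ± 7.15 FPKM after MA and 53.2 ± 1.12 without (SD, n = 3), at a log2 fold change of 0.39, and 0.26 without MA PANC-1 2. MAPK8, the kinase JNK1, had FPKM of 1.65, 1.42 and 1.75 after MA and of 2.10, 2.09 and 2.26 without, at -0.38, with no overlap, and the edgeR adjusted p was 0.390 for MAPK8 as for SHC1. MAPK8 missed the unadjusted threshold narrowly without PANC-1 3 (-0.35). MAPK14, the kinase p38α, had FPKM of 7.48, 7.07 and 8.21 after MA and of 7.49, 2.57 and 2.40 without, so that PANC-1 1 had the level of the MA libraries and the other untreated libraries lay far below, and its log2 fold change of 0.90 did not pass in the edgeR fit of all 6 samples (adjusted p = 0.469). It passed the unadjusted threshold with DESeq2 (adjusted p = 0.208) and with limma, and without PANC-1 1 it was 1.64 with an edgeR adjusted p = 0.0363. The small GTPase RHOA, the most abundant of the list, had 222 ± 8.61 FPKM after MA and 207 ± 3.79 without. Its log2 fold change was 0.14, and 0.085 without MA PANC-1 2.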

How the data were processed

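Total RNA of 6 PANC-1 samples, 3 with 40 μM MA and 3 without for 24 h, was sequenced. Submitters' processing notes name cutadapt 1.9, HISAT2 2.0.4, StringTie 1.3.4d, edgeR and DESeq2. The genome build is not given in the sources used here, and 99.5% of the identifiers are in GENCODE 29, 81.2% of these at the same position. For each gene the authors deposited FPKM, normalized by them for gene length and depth, with 0.0001 where no read was listed, and an estimated count, a whole number.

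Counts were tested for the 17774 genes whose mean FPKM was 0.1 or more, by edgeR 4.0.16 (quasi-likelihood test, TMM, R 4.3.3), with Benjamini-Hochberg adjustment over all of them. The fit is over all genes, and its biological coefficient of variation was 0.307. DEGs were defined by the thresholds of the study, 2-fold higher or lower (a fold of 2 or 0.5) and an unadjusted p under 0.05. Single FPKM ratios were compared by two-sided exact permutation tests. The test was checked on simulated data. The p-values rest on the spread between the samples of a group, and each of the 9 genes had an estimated count of 788 or more in every sample.

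The 9 genes and all lists were chosen with earlier results of these data known. Named are all 9 genes and, of each list, DEGs, up to 3 genes with the smallest p and the gene with the highest mean FPKM. The 3 genes most like a member are named for the 2 members with the smallest p. Alternatives were other size factors, DESeq2 1.42.0, limma 3.58.1 on log2(FPKM + 0.1), log2(FPKM + 1) and log2(FPKM + 0.01), no filter or a mean FPKM of at least 1, halved counts (in case both mates of a read pair were counted), a block for the replicate number, each sample left out in turn, and each gene summed with same-strand genes that overlap it. The alternatives for SNAI2, ACVR2B, MYC and RPS6KB2, and the list without MYC, were chosen after seeing the data. Promoter windows came from RefSeq.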

Additional observations from a re-analysis of the deposited data

How the results depend on the processing

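The signs of TGFB1, TGFB2, TGFBR1, TGFBR2, SMAD2 and SMAD3 were kept under every alternative, and TGFB2 and TGFBR2 kept an unadjusted p under 0.05 in all 16. Of the 9 genes, 2 to 3 had such a p when 1 sample was left out, with a median of -0.086 to -0.047, and 2 with limma on log2(FPKM + 1), where TGFBR1 missed it. The log2 fold change changed sign when 1 sample was left out for SMAD4 (-0.047 to 0.28, negative without MA PANC-1 3), SMAD7 (-0.073 to 0.11, positive without replicate 3 of either group), SKIL (-0.37 to 0.38, positive without MA PANC-1 2 or PANC-1 3), FURIN (-0.16 to 0.19, negative without replicate 2 of either group) and GDF15 (-0.055 to 0.34, negative without MA PANC-1 2, PANC-1 1 or PANC-1 3).

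DEGs among all genes numbered 342, against 44 with limma on log2(FPKM + 1), 569 with no filter, 93 at a mean FPKM of at least 1 and 326 to 534 when 1 sample was left out. Genes with an adjusted p under 0.05 numbered 7, against 263 with DESeq2, 12 at a mean FPKM of at least 1 and 3 to 24 when 1 sample was left out. The cause was not tested. Other pathway genes with an unadjusted p under 0.05 numbered 14, and 8 to 23 when 1 sample was left out, the highest on leaving out MA PANC-1 3 and the lowest on leaving out PANC-1 3, while leaving out MA PANC-1 2 gave 13.

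With the replicate number as a block, 3 of the 9 genes, 20 other pathway genes and 327 DEGs were called, and 0 genes had an adjusted p under 0.05. Of the named pathway genes, the block took ITGAV (-0.46), MAPK14 (1.12), USP11 (0.30), FKBP1A (0.27) and ACVR2B (-1.15) past the unadjusted threshold, and ITGB8 (-0.71) and SP1 (-0.23) missed it. Same-numbered samples deviated together with r = 0.0294, 0.0502 and 0.0724, too little to treat the numbers as pairs, though each sample correlated best with its own number. The estimate from summing all identifiers of a gene name was not run, as each name had 1.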

Other observations

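RPS6KB2, a ribosomal S6 kinase annotated to the KEGG TGF-beta signaling pathway and named after its values were seen, was the only gene past an unadjusted p of 0.05 in that pathway that was neither one of the 9 core genes nor in a list by role, at a log2 fold change of 0.37 (edgeR adjusted p = 0.432). It was 0.21 without MA PANC-1 2, still past that threshold, and missed it without PANC-1 1 (0.39), PANC-1 2 (0.33) or PANC-1 3 (0.38). The other 9 were ID3, BMP8B and CHRD, which were higher, and THBS1, NOG, SP1, TGFBR2, TGFB2 and TGFBR1, which were lower.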
